A study of Rattus norvegicus with 19 samples.

Results

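The genes described here are the chemokines and chemokine receptors of the rat T11 dorsal root ganglion, the cluster of sensory neuron cell bodies that serves 1 thoracic segment. They were chosen by name: every gene on the array whose symbol begins as a CC, CXC, CX3C or XC chemokine, a conventional receptor of the first 3 families or an atypical receptor. The rule found 45 genes with 58 probe sets, of 14217 genes and 31042 probe sets in all. They comprised 16 CC ligands, 11 CXC ligands, the CX3C ligand Cx3cl1 and the XC ligand Xcl1, with 6 CC receptors, 5 CXC receptors, the CX3C receptor Cx3cr1 and 4 atypical receptors. Each gene was read from its probe set with the highest mean over all arrays, and the other probe sets of the 8 genes that had several served as a check. Ccr7 is not analysed here.

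Adult female Sprague-Dawley rats were used, with 1 ganglion and 1 array per rat and no pooling of ganglia. Of 19 rats, 5 were naive and had no operation, 7 were taken at day 7 and 7 at day 14 after the skin nerves of segments T9, T10, T12 and T13 were cut on one side. The T11 nerve itself was spared, and its fibres then sprout into the denervated skin beside it. The study presumed day 7 to stand for the start of sprouting and day 14 for its upkeep. With no sham-operated rats among the groups, the operation as such and the loss of neighbouring skin nerves cannot be told apart. Values are log2 expression levels, so a difference of 1 is a doubling of signal. The 95% intervals and standard errors below, from limma, give the uncertainty of a difference between group means, while SD gives the spread between rats.

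Chemokines are small secreted proteins that guide white blood cells along a gradient to their receptors, which are G protein-coupled. In sensory ganglia they come from neurons, satellite glia, endothelium and resident macrophages. Ccl2 is known to be made by sensory neurons after nerve injury and to draw in monocytes through Ccr2, while Cx3cl1 on neurons signals to Cx3cr1 on macrophages. Atypical receptors bind chemokines without the usual signalling and clear, transport or buffer them.

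The ganglion showed signal above background for a smaller share of these genes than of all genes. Measured levels were set against a background level of 6.18, the 95th percentile of 40 probe sets of odour, pheromone and bitter taste receptor genes, which belong to other sense organs. By that mark 23 of 45 genes stood above background in at least 1 group: 9 of 16 CC ligands, 4 of 11 CXC ligands, 3 of 6 CC receptors, 2 of 5 CXC receptors, 3 of 4 atypical receptors, Cx3cl1 and Cx3cr1. Xcl1 did not. By the same mark 10810 of 14217 genes in all stood above background. The count was 33 with the median of those 40 probe sets (5.22) as the mark and 14 with the median of all probe sets (6.72). Because brightness also depends on the probes, a gene not above the mark may still be expressed, and no level is set against that of another gene here. Sensory neuron transcripts, which check the labelled tissue, were above background for 11 of 11 measured markers. Their mean log2 level lay between 11.76 and 12.14 on all arrays.

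No chemokine or receptor passed the test after adjustment over all probe sets, at either time. With limma, 0 of 45 genes had an adjusted p under 0.05 at day 7, where 0.0% of all probe sets were called. At day 14 it was 0 of 45, against 0.139% of all probe sets, and for day 14 against day 7 it was 0 of 45, against 0.0%. The F test for any difference among the 3 groups called 0 of 45 genes, against 0.0258% of probe sets. At an unadjusted F test p under 0.05 there were 10 genes (22.2%), against 16.2% of all genes. Every gene difference below is therefore given as a value that did not pass, and "higher" describes the means.

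Without adjustment, the genes leaned upward at day 14. At day 7, 2 of 45 genes (4.44%) were higher at an unadjusted p under 0.05, Ccl2 and Cxcl11, where 3.58% of all genes were. None was lower, against 6.37% of all genes. At day 14, 16 of 45 (35.6%) were higher and 0 lower, where 9.17% of all genes were higher and 10.2% lower. Between day 7 and day 14, 9 of 45 (20.0%) were higher and 0 lower, against 6.11% and 4.43% of all genes. The median log2 difference of the 45 genes was 0.05 at day 7, 0.15 at day 14 and 0.08 from day 7 to day 14, beside medians of -0.003, 0.003 and 0.004 over all genes. At day 14, 37 of 45 (82.2%) lay above the naive mean, against 50.7% of all genes. The 16 became 9 without naive rat 2 and 10 without naive rat 5, the 9 became 4 without day 14 rat 3, and the 2 became 1 to 4 when 1 rat was left out.

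Part of that lean lay among dim probe sets, which as a whole stood higher at day 14. Of the genes not above background, 10 of 22 chemokine genes (45.5%) were higher at day 14 at an unadjusted p under 0.05, against 18.0% of all genes of that level. Among genes above background it was 6 of 23 (26.1%), against 6.38%. The class was set by the highest group mean, so a gene can enter it through the group where it is high. Ccl20 entered by its day 14 mean alone, and the naive mean of Ccl17, at 5.92, lay under the mark. The naive mean of Ccl19 lay at the mark, at 6.18. Between day 7 and day 14 the shares were 6 of 23 above background, against 4.57%, and 3 of 22 not above it (13.6%), against 11%. At day 7 they were 1 of 23, against 3.77%, and 1 of 22, against 2.96%. Whatever their p, 20 of 22 chemokine genes not above background (90.9%) lay above the naive mean at day 14, against 75.2% of all genes of that level. Their median log2 difference was 0.13, against 0.07. Above background it was 17 of 23 (73.9%), against 43%, with medians of 0.16 and -0.02. Ligands held 12 of the 16 genes higher at day 14, of 29 measured, with a median log2 difference of 0.21. Receptors held 4 of 16 measured, with a median of 0.08, and none of the 6 CC receptors was among them.

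**Figure D1:**
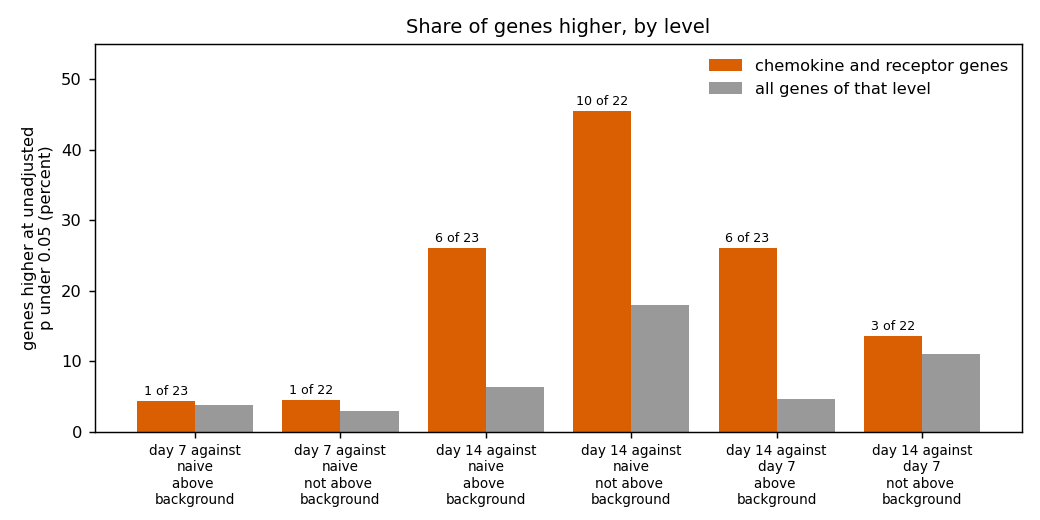
Bars give the percent of genes higher at an unadjusted p under 0.05 (limma), for chemokine and receptor genes (orange) and for all genes of the same level class (grey), by comparison and by whether a gene stood above the background level. At day 14 against naive the shares were 26.1% against 6.38% above background and 45.5% against 18.0% not above it, while at day 7 they were 1 of 23 and 1 of 22 genes. The level class of a gene was set by its highest group mean, day 14 included.

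**Figure D2:**
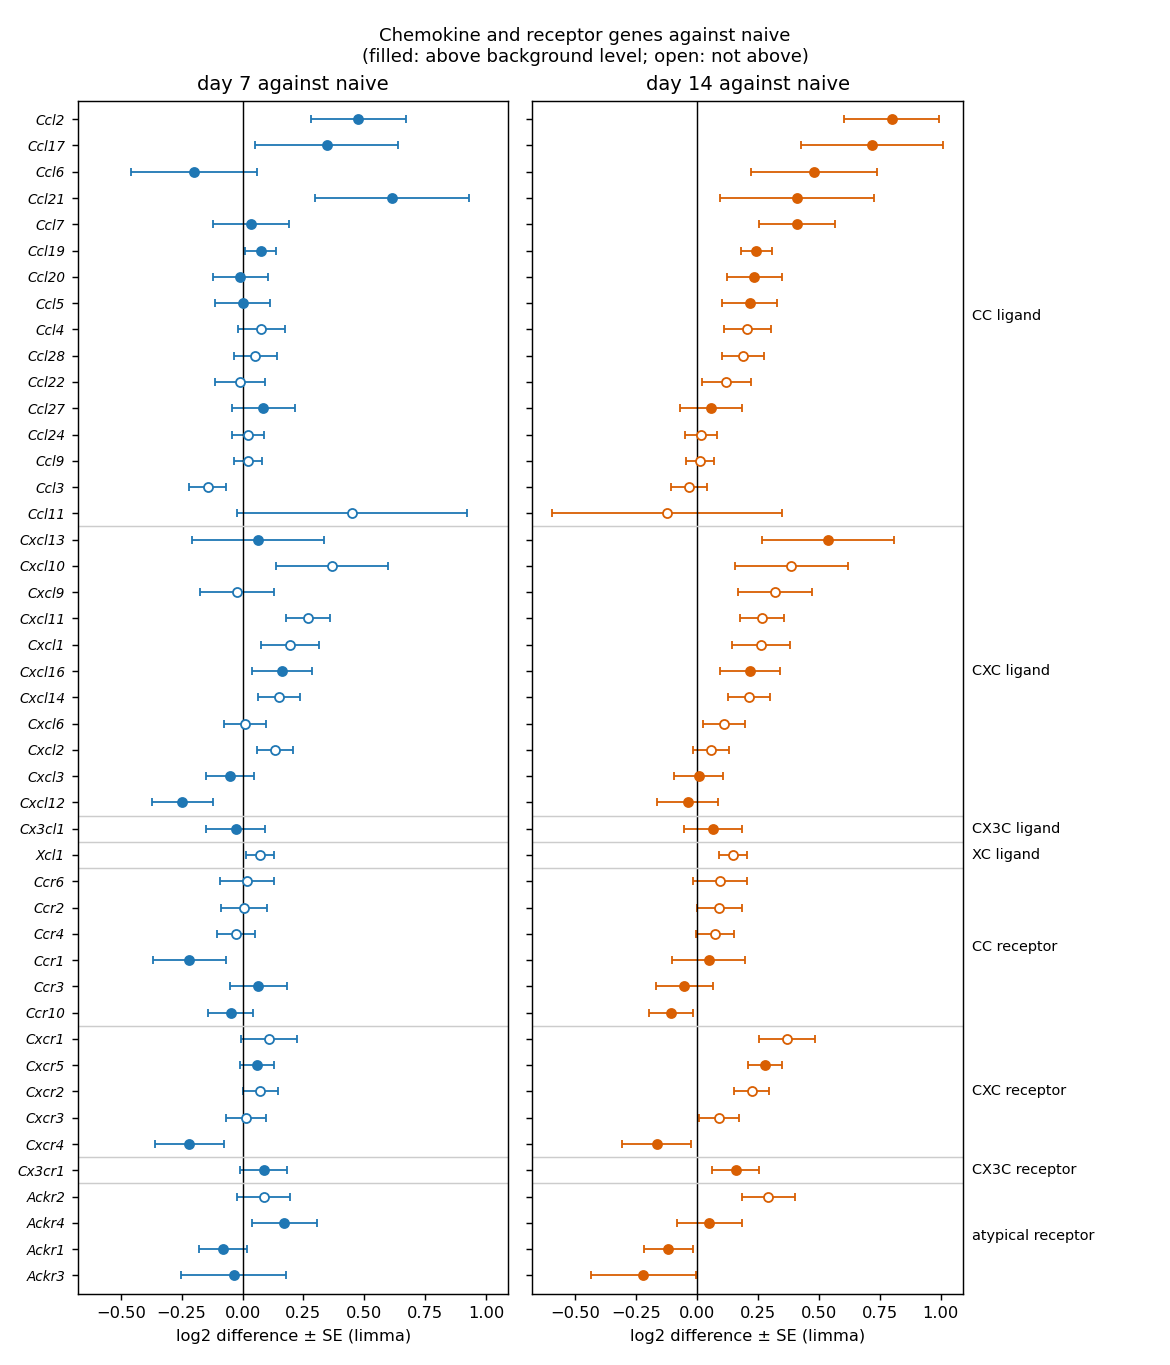
Points give the log2 difference from naive rats and bars its standard error from limma for all 45 genes, at day 7 (left, n = 7) and day 14 (right, n = 7) against naive (n = 5), grouped by role and ordered by the day 14 difference. Filled points are genes above the background level; at day 14 the differences ran from -0.22 for Ackr3 to 0.80 for Ccl2, and 37 of 45 were above 0.

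Ccl2, the monocyte chemoattractant, had the largest day 14 difference of the 45 genes. Naive rats measured 9.03, 8.76, 9.13, 8.70 and 9.27. Day 7 rats lay between 8.92 and 9.95 with a median of 9.38, and day 14 rats between 9.05 and 10.25 with a median of 9.83. Thus 5 of 7 day 7 rats and 6 of 7 day 14 rats lay above every naive rat, and day 14 rat 7 lay among the naive ones. Naive rats averaged 8.98 ± 0.24 (SD, n = 5), day 7 rats 9.45 ± 0.42 (SD, n = 7) and day 14 rats 9.78 ± 0.38 (SD, n = 7). The log2 difference from naive was 0.48 ± 0.19 (SE) at day 7 (limma adjusted p = 0.519). At day 14 it was 0.80 ± 0.19 (SE), a fold of 1.74, with a 95% interval of 0.39 to 1.20 and a limma adjusted p of 0.076. Day 14 exceeded day 7 by 0.32 ± 0.18 (SE; limma adjusted p = 0.503). Without day 14 rat 7, the rat among the naive ones, the day 14 difference was 0.92 and passed (limma adjusted p = 0.0489). That was the lowest adjusted p of 25 alternative settings, over which the difference ran from 0.61 to 1.08 and the limma adjusted p up to 0.99997.

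Ccl7, a monocyte chemoattractant encoded next to Ccl2 in the rat genome, had a larger difference from naive at day 14 than at day 7, with overlap between the groups at both times. Naive rats measured 7.16, 6.97, 7.40, 7.19 and 6.92. Day 7 rats lay between 6.43 and 7.55 with a median of 7.25 and enclosed the naive range. At day 14 the range was 7.21 to 7.84 with a median of 7.53, and 5 of 7 rats lay above every naive rat. The log2 difference was 0.03 ± 0.16 (SE) at day 7 and 0.41 ± 0.16 (SE) at day 14, a fold of 1.33 (limma adjusted p = 0.17). Day 14 exceeded day 7 by 0.38 ± 0.14 (SE; limma adjusted p = 0.362). Ccl11, an eosinophil chemoattractant encoded next to Ccl7, was not above background, with a day 14 difference of -0.12 ± 0.47 (SE). The main receptor that Ccl2 and Ccl7 share, Ccr2, was not above background either. Naive rats measured 4.34 to 4.68 (median 4.55), day 7 rats 4.22 to 4.81 (median 4.55) and day 14 rats 4.46 to 4.98 (median 4.55). Its log2 differences were 0.01 ± 0.09 (SE) at day 7 and 0.09 ± 0.09 (SE) at day 14.

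Ccl19, a ligand of Ccr7 that guides T cells and dendritic cells, was the above-background gene with no overlap between day 14 and naive rats. Naive rats measured 6.22, 6.12, 6.14, 6.26 and 6.18, on either side of the background level, and day 14 rats lay between 6.37 and 6.55 with a median of 6.39. Day 7 rats lay between 6.15 and 6.56 with a median of 6.22, 5 of them within the naive range. The day 14 difference was 0.24 ± 0.06 (SE), with a 95% interval of 0.11 to 0.37 and a limma adjusted p of 0.0781. Day 14 exceeded day 7 by 0.17 ± 0.06 (SE; limma adjusted p = 0.346). The groups did not overlap, with day 14 above naive, for 2 of 45 genes, Ccl19 and the dim Cxcl14, against 0.914% of all genes. At day 7 this held for 1 of 45, the dim Cxcl11, against 0.225%, and from day 7 to day 14 for 0 of 45, against 0.0703%.

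Ccl17, a ligand of Ccr4 on T cells, had the second largest day 14 difference. Naive rats measured 6.01, 5.70, 6.07, 6.08 and 5.75, all under the background level. At day 14 the rats measured 7.04, 6.05, 6.76, 6.23, 7.20, 7.15 and 6.06, so 5 of 7 lay above every naive rat and the other 2 inside the naive range. Day 7 rats lay between 5.70 and 7.89 with a median of 6.08, and rat 2 alone made up the upper end, the next being 6.18. The day 14 difference was 0.72 ± 0.29 (SE), a fold of 1.65, with a 95% interval of 0.11 to 1.33 and a limma adjusted p of 0.191. Ccl22, the other Ccr4 ligand, was not above background, with differences of -0.01 ± 0.10 (SE) at day 7 and 0.12 ± 0.10 (SE) at day 14. The dimmer Ccl22 probe set stood at 0.06 ± 0.07 (SE) at day 7 and 0.18 ± 0.07 (SE) at day 14 (limma adjusted p = 0.167). On it 6 of 7 day 14 rats lay above every naive rat. Ccr4 was not above background, with a day 14 difference of 0.07 ± 0.08 (SE).

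Ccl20, the ligand of Ccr6, measured 6.36, 6.0, 6.20, 6.08 and 6.07 in naive rats. Group means were 6.14 in naive rats, 6.13 at day 7 and 6.38 at day 14, so only the day 14 mean stood above the background level. The range of Ccl20 was 5.81 to 6.55 (median 6.18) at day 7 and 6.13 to 6.59 (median 6.42) at day 14. The groups overlapped, with 4 of 7 day 14 rats above every naive rat. The day 14 difference of 0.24 ± 0.11 (SE) had a limma adjusted p of 0.252, and that from day 7 of 0.24 ± 0.10 (SE) had one of 0.393. Ccr6 was not above background, with a day 14 difference of 0.09 ± 0.11 (SE).

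Cxcr5, the receptor that directs B cells and follicular T cells to Cxcl13, had the smallest F test p of the 45 genes. Naive rats measured 9.11, 8.82, 9.0, 8.96 and 8.91. Day 7 rats lay between 8.86 and 9.17 with a median of 8.96, and day 14 rats between 9.11 and 9.37 with a median of 9.26. At day 14, 6 of 7 rats lay above every naive rat and 5 of 7 above every day 7 rat. The log2 difference was 0.06 ± 0.07 (SE) at day 7 and 0.28 ± 0.07 (SE) at day 14, with a 95% interval of 0.13 to 0.43 and a limma adjusted p of 0.0769. Day 14 exceeded day 7 by 0.22 ± 0.06 (SE; limma adjusted p = 0.289). Without naive rat 1 the day 14 difference was 0.32 and passed (limma adjusted p = 0.0439), whereas with the prefix of the rats' codes as a block it was 0.17 and among rats of prefix AJ alone 0.12, neither at an unadjusted p under 0.05. The other Cxcr5 probe set, with a mean level of 6.28, stood at 0.12 at day 7 and 0.17 at day 14.

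Of 6 listed B cell markers 3 were measured and 1 was above background, and the mean level of the list was 5.55 to 5.99 in naive rats, 5.31 to 6.01 at day 7 and 5.39 to 6.04 at day 14. None of the 3 was higher at day 14 than in naive rats at an unadjusted p under 0.05. Cxcl13, the ligand of Cxcr5, measured 6.09 to 6.24 in naive rats, 5.63 to 6.86 at day 7 and 6.13 to 8.10 at day 14. Its day 14 difference was 0.54 ± 0.27 (SE; limma adjusted p = 0.276). Day 14 rat 5 lay at 8.10 and the next at 6.93, and 3 of the day 14 rats lay within the naive range.

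**Figure D3:**
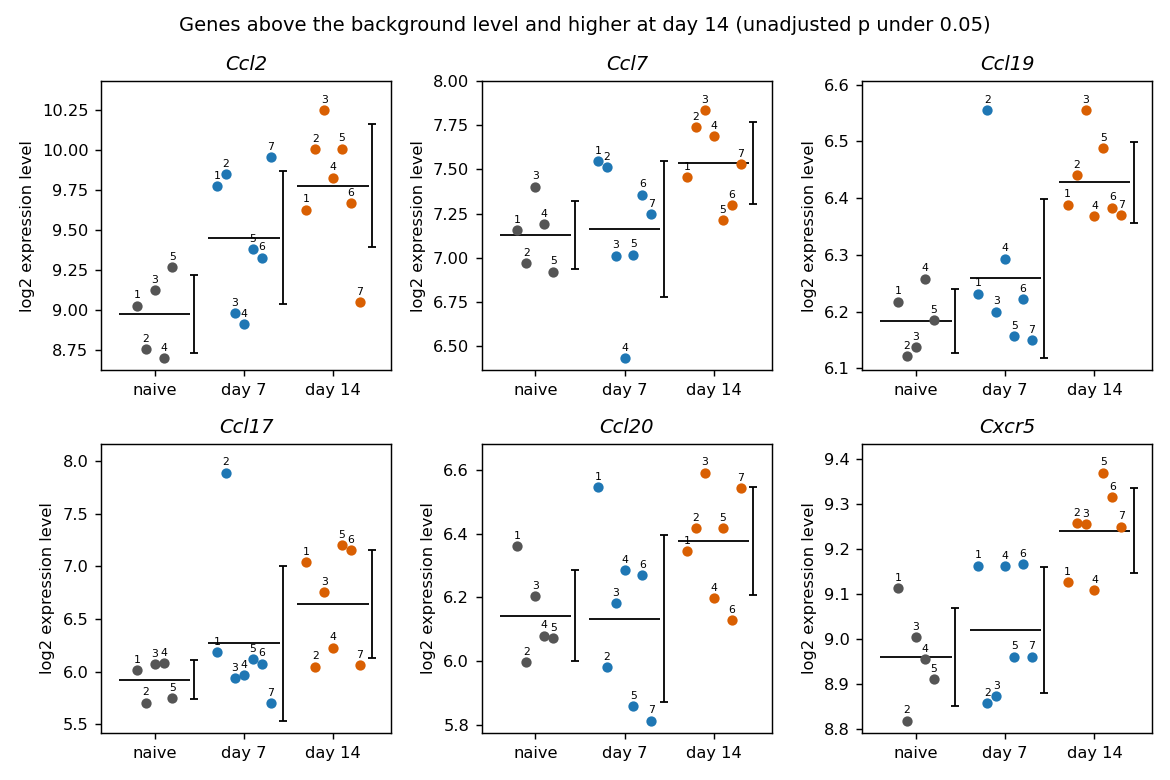
Each point is the log2 expression level of 1 rat, numbered by its replicate within the group, for the 6 genes that were above the background level and higher at day 14 than in naive rats at an unadjusted p under 0.05; lines are group means and bars SD (5 naive, 7 day 7 and 7 day 14 rats). For Ccl19 all 7 day 14 rats lay above every naive rat, for Ccl2 and Cxcr5 6 of 7, for Ccl7 and Ccl17 5 of 7 and for Ccl20 4 of 7.

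The bases before the start site are shown for 5 of the 16 genes higher at day 14 at an unadjusted p under 0.05, chosen after their values were seen. They are the above-background ligands with a sequence, and Cxcl11, which was not above background. The other genes not above background are not shown. RefSeq promoter sequence of build GRCr8 was matched for 35 of 45 genes; that of Ccl2 and Cxcr5 is not shown. Each line gives the 250 bases before the start site, 5′ to 3′ on the gene's strand. Capitals mark a loose pattern of the inflammatory factor NF-kappaB, GGG and CC with any 5 bases between them, and TGANTCA, that of AP-1, the factor of Jun and Fos, on either strand.
Ccl7 (chr10:67513845-67514094, plus strand): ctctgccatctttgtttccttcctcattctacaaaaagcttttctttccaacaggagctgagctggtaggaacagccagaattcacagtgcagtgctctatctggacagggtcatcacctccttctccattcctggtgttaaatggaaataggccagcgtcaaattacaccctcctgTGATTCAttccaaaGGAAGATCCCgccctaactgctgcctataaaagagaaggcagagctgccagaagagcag
Ccl19 (chr5:61761165-61761414, minus strand): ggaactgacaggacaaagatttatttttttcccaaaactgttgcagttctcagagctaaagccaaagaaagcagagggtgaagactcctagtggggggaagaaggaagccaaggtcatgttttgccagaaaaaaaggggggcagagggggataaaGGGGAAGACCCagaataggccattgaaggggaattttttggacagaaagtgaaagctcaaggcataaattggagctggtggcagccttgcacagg
Ccl20 (chr9:91836909-91837158, plus strand): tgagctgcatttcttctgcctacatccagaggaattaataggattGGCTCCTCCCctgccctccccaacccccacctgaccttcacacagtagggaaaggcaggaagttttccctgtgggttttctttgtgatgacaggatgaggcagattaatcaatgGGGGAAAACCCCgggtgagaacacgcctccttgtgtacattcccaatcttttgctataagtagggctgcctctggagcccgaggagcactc
Cxcl11 (chr14:15973478-15973727, plus strand): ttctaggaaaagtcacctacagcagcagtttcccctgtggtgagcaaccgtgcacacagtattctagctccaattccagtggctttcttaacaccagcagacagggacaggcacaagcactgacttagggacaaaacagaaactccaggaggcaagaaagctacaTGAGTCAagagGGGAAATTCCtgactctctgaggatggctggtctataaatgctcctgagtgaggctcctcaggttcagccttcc
Ccl17 (chr19:10209896-10210145, minus strand): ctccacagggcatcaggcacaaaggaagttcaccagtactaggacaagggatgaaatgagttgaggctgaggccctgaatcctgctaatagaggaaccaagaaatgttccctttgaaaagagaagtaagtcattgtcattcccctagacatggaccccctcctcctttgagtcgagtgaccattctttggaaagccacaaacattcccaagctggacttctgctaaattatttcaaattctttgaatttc
In Ccl7 the AP-1 pattern began 73 bases and the NF-kappaB pattern 59 bases before the start site, followed by TATAAA at 34. In Cxcl11 the same 3 patterns began at 85, 74 and 41 bases before the start site, in the same order. Ccl19 held overlapping NF-kappaB matches from 95 bases and Ccl20 a run of 3 from 91 bases besides 1 at 205, and Ccl17 held none of the patterns. The NF-kappaB pattern was found in 19 of 35 promoters (54.3%), against 42.3% of 33469 RefSeq promoters of that length. TGANTCA was found in 5 of 35 (14.3%), against 6.34%, and TATAAA in 10 of 35 (28.6%), against 12.9%. Of the 16 genes higher at day 14, 13 had a sequence, of which 7 held the NF-kappaB pattern and 5 none of the 3 patterns. Of these 13, 3 held TGANTCA and 2 TATAAA, the latter being Ccl7 and Cxcl11, so the layout those 2 genes share was not that of the set. A match describes letters and shows no binding.

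Other CC ligands above background were less orderly across rats. Ccl6, a myeloid chemokine of rodents, measured 8.57 to 9.30 in naive rats, 7.53 to 9.54 at day 7 and 8.72 to 9.71 at day 14, with medians of 8.73, 8.52 and 9.48. It was -0.20 ± 0.26 (SE) from naive at day 7 and 0.48 ± 0.26 (SE) at day 14. Day 14 exceeded day 7 by 0.68 ± 0.24 (SE; limma adjusted p = 0.352), and 2 of 7 day 14 rats lay above every day 7 rat. Ccl21, the other Ccr7 ligand, measured 8.49 to 9.28 in naive rats, 8.32 to 10.61 at day 7 and 9.01 to 9.96 at day 14. At day 7, 5 of 7 rats lay above every naive rat while rats 1 and 3, at 8.32 and 8.49, lay at or under the lower end of the naive range. Its difference at day 7 was 0.61 ± 0.32 (SE; limma adjusted p = 0.606), and that at day 14 was 0.41 ± 0.32 (SE; limma adjusted p = 0.474). Ccl5, a ligand of Ccr1 and Ccr3, averaged 7.40 in naive and in day 7 rats and 7.61 at day 14. Day 14 exceeded day 7 by 0.22 ± 0.10 (SE; limma adjusted p = 0.441). Ccl27, a skin chemokine that binds Ccr10, differed by 0.09 ± 0.13 (SE) at day 7 and 0.06 ± 0.13 (SE) at day 14.

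The remaining 7 CC ligands were not above background. Ccl3, a macrophage inflammatory protein, stood at -0.14 ± 0.08 (SE) at day 7 and -0.03 ± 0.08 (SE) at day 14. Ccl4, its neighbour and close relative, stood at 0.08 ± 0.10 (SE) and 0.21 ± 0.10 (SE). Naive rats measured 5.31 to 5.63 for Ccl3 and 5.29 to 5.70 for Ccl4, and day 14 rats 5.28 to 5.56 and 5.54 to 5.82, so both overlapped. Ccl4 was among the genes higher at day 14 at an unadjusted p under 0.05 (limma adjusted p = 0.246), as was Ccl28, a mucosal ligand of Ccr10, at 0.19 ± 0.09 (SE). Ccl28 measured 4.57 to 5.05 in naive rats (median 4.83), 4.67 to 5.06 at day 7 (median 4.87) and 4.84 to 5.22 at day 14 (median 5.03). The eosinophil chemokine Ccl24 and Ccl9 differed from naive by 0.01 to 0.02 at both times. Ccl11 measured 5.29 to 5.73 in naive rats and 5.11 to 5.43 at day 14, whereas day 7 rat 2 lay at 9.08 and day 7 rat 4 at 6.15.

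Among CXC ligands, Cxcl12, the constitutive ligand of Cxcr4 and Ackr3, measured 8.58 to 9.20 in naive rats (median 8.98), 8.37 to 9.01 at day 7 (median 8.64) and 8.51 to 9.28 at day 14 (median 8.89). The groups overlapped throughout. Its log2 difference was -0.25 ± 0.12 (SE) at day 7 (limma adjusted p = 0.601) and -0.04 ± 0.12 (SE) at day 14. Its other probe sets stood at -0.02 and 0.08 at day 7. Cxcl16, a membrane-bound chemokine and scavenger receptor, stood at 0.16 ± 0.12 (SE) and 0.22 ± 0.12 (SE), with day 7 rat 2 at 8.96 and day 14 rat 3 at 8.93 above the rest of their groups. For Cxcl3, a neutrophil chemoattractant with 5 probe sets, the brightest stood at -0.05 ± 0.10 (SE) and 0.01 ± 0.10 (SE), and the others between -0.04 and 0.11 at both times.

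Cxcl9, Cxcl10 and Cxcl11, the interferon-induced ligands of Cxcr3, lie side by side in the genome, and none was above background. Cxcl11 measured 5.11 to 5.37 in naive rats (median 5.29), 5.38 to 5.80 at day 7 (median 5.49) and 5.35 to 5.91 at day 14 (median 5.53). All 7 day 7 rats lay above every naive rat, and 5 of 7 day 14 rats did. Its difference was 0.27 ± 0.09 (SE) at day 7 (limma adjusted p = 0.446) and 0.27 ± 0.09 (SE) at day 14 (limma adjusted p = 0.135). Cxcl10 measured 5.34 to 5.91 in naive rats, 5.62 to 6.68 at day 7 and 5.42 to 7.16 at day 14, with differences of 0.37 ± 0.23 (SE) and 0.39 ± 0.23 (SE). Cxcl9 measured 4.68 to 5.24 in naive rats, 4.54 to 5.15 at day 7 and 4.87 to 5.87 at day 14. It stood at -0.02 ± 0.15 (SE) at day 7 and 0.32 ± 0.15 (SE) at day 14, whereas its dimmer probe set stood at 0.23 and 0.21, so its probe sets disagree for day 7. Their receptor Cxcr3 was not above background, at 4.73 to 5.10 in naive rats and 4.81 to 5.28 at day 14.

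The neutrophil ligands Cxcl1 and Cxcl2 lie side by side, as do the genes of Cxcr1 and Cxcr2, the receptors of this ligand group, and none was above background. Cxcl1 measured 5.14 to 5.72 in naive rats (median 5.45), 5.30 to 5.97 at day 7 (median 5.70) and 5.51 to 6.04 at day 14 (median 5.63). Its day 14 difference was 0.26 ± 0.12 (SE; limma adjusted p = 0.227). Cxcr1 measured 5.30 to 5.49 in naive rats, 5.23 to 5.67 at day 7 and 5.44 to 6.21 at day 14, with 6 of 7 day 14 rats above every naive rat. Its day 14 difference was 0.37 ± 0.12 (SE; limma adjusted p = 0.117). Cxcr2 measured 4.90 to 5.09 in naive rats, 4.83 to 5.21 at day 7 and 5.08 to 5.37 at day 14. Its day 14 difference was 0.23 ± 0.07 (SE; limma adjusted p = 0.123). Of 5 measured neutrophil markers 0 were higher and 2 lower at day 14 at an unadjusted p under 0.05, against 9.17% and 10.2% of all genes. The 2 were S100a8 at -1.28 and Camp at -0.70, and S100a8 ran from 5.66 to 10.01 in naive rats. The mean of the neutrophil list was 5.47 to 7.95 in naive rats, 5.52 to 6.60 at day 7 and 5.56 to 6.61 at day 14. The part of neutrophils in the values of these receptors was not tested.

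Cxcl14, an epithelial chemokine, measured 4.87 to 5.0 in naive rats, 4.79 to 5.34 at day 7 and 5.01 to 5.29 at day 14, so day 14 and naive rats did not overlap. Its day 14 difference was 0.21 ± 0.09 (SE; limma adjusted p = 0.188), and its other probe set stood at 0.24. Xcl1, a product of T and natural killer cells, measured 4.82 to 4.99 in naive rats, 4.85 to 5.06 at day 7 and 4.91 to 5.18 at day 14. It stood at 0.15 ± 0.06 (SE), with a limma adjusted p of 0.178. Of 10 measured T and natural killer cell markers 2 were above background, and the mean of that list was 5.47 to 5.68 in naive and 5.52 to 5.76 in day 14 rats. At day 14, 2 of these 10 were higher at an unadjusted p under 0.05, Cd2 at 0.21 and Cd4 at 0.15, neither above background. All these levels lie in the dim range, where 18.0% of all genes were higher at day 14 at an unadjusted p under 0.05.

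**Figure D4:**
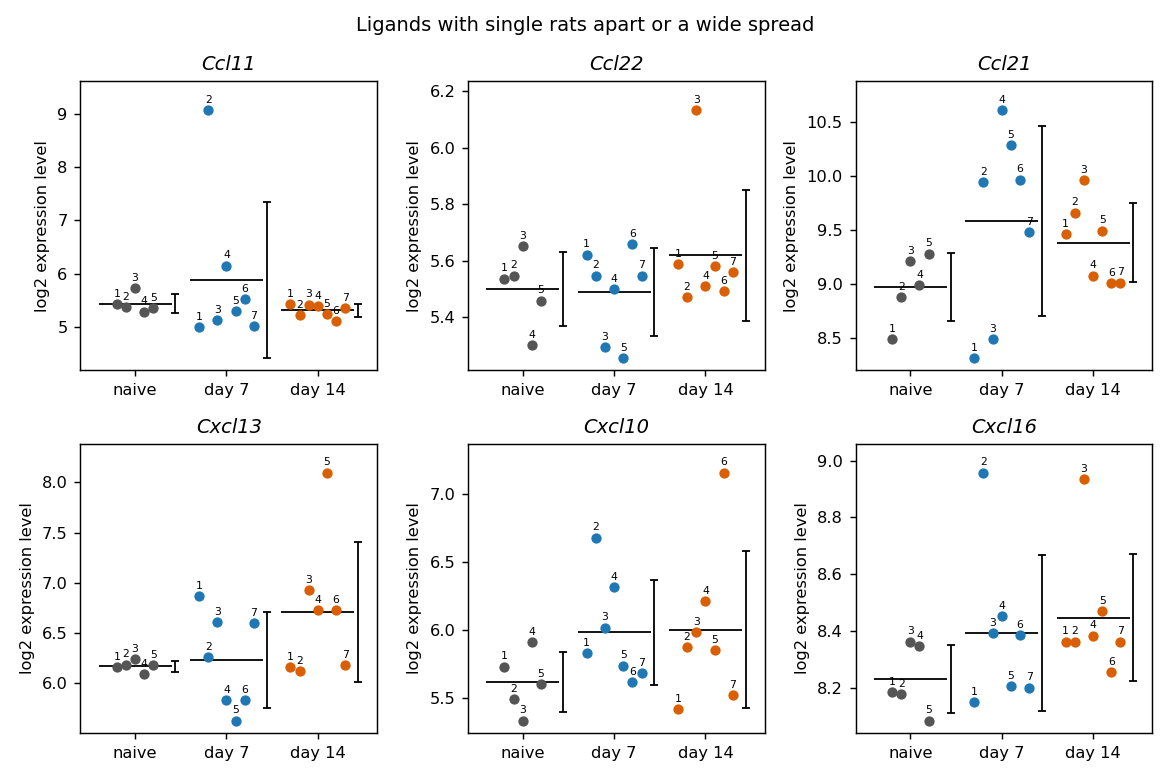
Each point is the log2 expression level of 1 rat, numbered by its replicate within the group, for 6 ligands in which single rats lay apart or the spread was wide; lines are group means and bars SD (5 naive, 7 day 7 and 7 day 14 rats). Day 7 rat 2 lay at 9.08 for Ccl11 and 8.96 for Cxcl16, day 14 rat 3 at 6.13 for Ccl22 and 8.93 for Cxcl16, and day 14 rat 5 at 8.10 for Cxcl13.

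The neuron-to-macrophage pair Cx3cl1 and Cx3cr1 differed little between groups. Cx3cl1 measured 6.73 to 7.56 in naive rats (median 7.10), 6.85 to 7.33 at day 7 (median 7.02) and 6.82 to 7.44 at day 14 (median 7.15). Its difference was -0.03 ± 0.12 (SE) at day 7 and 0.07 ± 0.12 (SE) at day 14, with a 95% interval of -0.19 to 0.32 at day 14. Cx3cr1 measured 5.95 to 6.24 in naive rats, 5.99 to 6.60 at day 7 and 5.98 to 6.53 at day 14. At day 14, 6 of 7 rats lay above every naive rat, with a difference of 0.16 ± 0.10 (SE), a 95% interval of -0.04 to 0.36 and a limma adjusted p of 0.361.

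Cxcr4, the receptor of Cxcl12, measured 8.98 to 9.33 in naive rats (median 9.25), 8.66 to 9.36 at day 7 (median 8.85) and 8.51 to 9.37 at day 14 (median 9.06). Its differences were -0.22 ± 0.14 (SE) and -0.17 ± 0.14 (SE), the latter with a 95% interval of -0.46 to 0.13. One other Cxcr4 probe set stood at -0.15 (day 7) and -0.12 (day 14), and another at 0.004 (day 7) and -0.16 (day 14). Ackr3, which scavenges Cxcl12, measured 7.65 to 8.50 in naive rats, 7.54 to 8.68 at day 7 and 7.03 to 8.60 at day 14, with differences of -0.04 ± 0.22 (SE) and -0.22 ± 0.22 (SE). Both receptors overlapped between all groups.

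Ackr1, which carries chemokines across the endothelium of venules, was steady between 10.69 and 11.12 in naive rats, 10.53 and 11.03 at day 7 and 10.57 and 11 at day 14. Its differences were -0.08 ± 0.10 (SE) and -0.12 ± 0.10 (SE), the latter with a 95% interval of -0.33 to 0.09. Ackr4, a scavenger of Ccl19 and Ccl21, stood at 0.17 ± 0.13 (SE) at day 7 and 0.05 ± 0.13 (SE) at day 14. Ackr2, a scavenger of inflammatory CC ligands, had group means under background. It measured 5.65 to 5.96 in naive rats, 5.56 to 6.19 at day 7 and 5.92 to 6.57 at day 14, with a day 14 difference of 0.29 ± 0.11 (SE) and a limma adjusted p of 0.165. Its second probe set stood at -0.08 at day 14. The CC receptors Ccr1, Ccr3 and Ccr10 were above background and stood at -0.22 ± 0.15, 0.07 ± 0.12 and -0.05 ± 0.09 (SE) at day 7. At day 14 they stood at 0.05 ± 0.15, -0.05 ± 0.12 and -0.11 ± 0.09 (SE).

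Macrophages are a main source and target of these ligands. Of 18 macrophage markers 18 were measured and 17 were above background. At day 7, 0 were higher and 1 lower than naive at an unadjusted p under 0.05, against 3.58% and 6.37% of all genes. At day 14 2 were higher, against 9.17% of all genes, Mpeg1 at 0.52 ± 0.19 (SE) and Laptm5 at 0.44 ± 0.19 (SE). From day 7 to day 14, 6 were higher and 0 lower, against 6.11% and 4.43% of all genes. Whatever their p, 17 of the 18 markers lay above naive at day 14, where 50.7% of all genes did, with a median log2 difference of 0.20. At day 7, 5 of the 18 lay above naive, where 48.7% of all genes did, with a median of -0.06. The mean of the list was 8.08 to 8.56 in naive rats, 7.51 to 8.85 at day 7 and 8.14 to 8.91 at day 14. In whole ganglia, more cells of a type and more RNA per cell cannot be told apart. Some markers of other cells also stood higher from day 7 to day 14 at an unadjusted p under 0.05, with 5 of 6 fibroblast and 3 of 6 Schwann cell genes. Against naive, 2 fibroblast and 3 Schwann cell genes were lower at day 7, and 0 of either list were higher at day 14. Between the days 0 endothelium genes were higher and 1 lower, and 0 satellite glia or sensory neuron genes were higher. Of 8 injury-induced neuron genes, 6 were higher than naive at day 7 and 8 at day 14 at an unadjusted p under 0.05. All genes gave 3.58% and 9.17%, but the lists were chosen with earlier results of these data known. The part of these cells in the chemokine values was not tested.

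Ccl2 was set against Atf3, a transcription factor induced in injured neurons, rat by rat. Day 7 rats with Atf3 at 9.69, 11.15 and 10.17 had Ccl2 at 9.77, 9.85 and 9.95, and the day 7 rats with Atf3 at 7.95 and 7.28 had Ccl2 at 8.98 and 8.92. Day 14 rat 7, whose Ccl2 of 9.05 lay among naive values, had Atf3 at 8.12, against 7.94 to 8.44 in naive rats. Day 14 rat 2 and day 7 rat 5 went the other way: their Ccl2 lay above every naive rat while Atf3 was at 8.33, within the naive range, and at 7.88, under it. Day 14 rat 2 and day 7 rat 7, whose Ccl2 was 9.95, were also the arrays highest in skeletal muscle transcripts in their groups.

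Within day 7, Ccl2 and Atf3 gave a Pearson r of 0.89 (exact permutation p = 0.0119, adjusted 0.119) and a Spearman rho of 0.86 (exact permutation p = 0.0238, adjusted 0.238) over 7 rats. Without the 2 rats farthest from the median of Ccl2, r was 0.84. Within day 14, r was 0.69 (exact permutation p = 0.0794, adjusted 0.265) and rho 0.75 (exact permutation p = 0.0663, adjusted 0.331). It was -0.01 without the 2 farthest rats, so the day 14 relation rests on those rats. The mean of the macrophage markers gave r = 0.07 with Ccl2 at day 7 (exact permutation p = 0.863, adjusted 0.949) and rho = 0.18 (exact permutation p = 0.713, adjusted 0.933). At day 14 it gave r = 0.84 (exact permutation p = 0.0252, adjusted 0.126) and rho 0.68 (exact permutation p = 0.11, adjusted 0.365), and r = 0.004 without the 2 farthest rats. Tests were two-sided, and no r is given within a code prefix, since none held 6 rats of a day.

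Of 12 relations planned 10 were computed, and 0 had an adjusted p under 0.05. No r is given for Ccl2 and Ccl7 at day 7, or for Cx3cr1 and Cx3cl1 at day 14. In each pair a gap to 1 rat took up over 0.5 of the range of 1 measure. Day 7 rat 4 had Ccl7 at 6.43, the other day 7 rats 7.01 to 7.55. Day 14 rat 4 had Cx3cl1 at 6.82, the other day 14 rats 7.14 to 7.44. At day 14 Ccl2 and Ccl7 gave r = 0.30 (exact permutation p = 0.529, adjusted 0.949) and rho = 0.32 (exact permutation p = 0.498, adjusted 0.933). Cxcl12 and Cxcr4 gave r of -0.39 at day 7 and 0.05 at day 14, with rho of -0.18 and 0.14. Cx3cr1 with the macrophage mean gave r of 0.03 at both times, with rho of 0.11 and -0.04, and with Cx3cl1 at day 7 it gave r of 0.25 and rho of 0.50. The exact permutation p of these 5 relations were 0.267 or more, adjusted 0.667 or more.

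**Figure D5:**
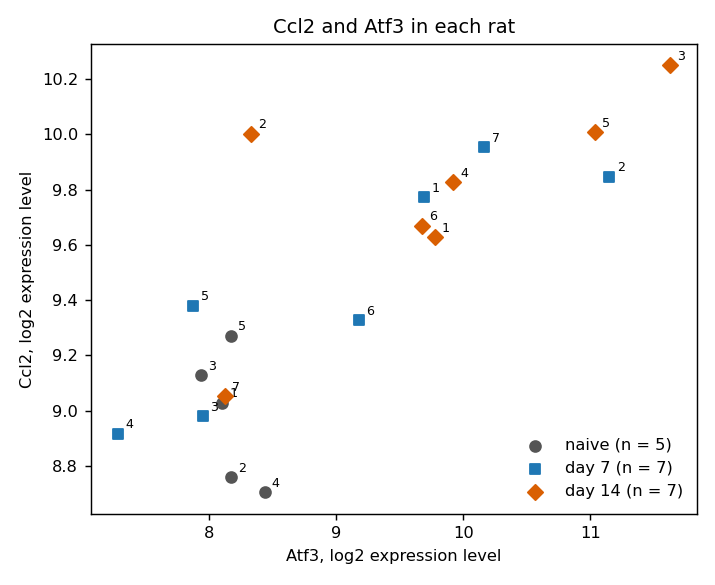
Each point is 1 rat, with the log2 expression level of Atf3 on the horizontal axis and of Ccl2 on the vertical axis, numbered by its replicate within the group (5 naive, 7 day 7 and 7 day 14 rats). Naive rats lie at Atf3 7.94 to 8.44 and Ccl2 8.70 to 9.27, day 14 rat 7 lies among them, and day 14 rat 3 lies highest at 11.63 and 10.25.

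Of genes known to induce chemokines, 11 of 19 measured lay above naive at day 14, with a median log2 difference of 0.06, and 0 of 19 were past an adjusted p of 0.05 in any comparison (limma). At an unadjusted p under 0.05, 7 were higher and 0 lower at day 14, against 9.17% and 10.2% of all genes. At day 7, 2 were higher and 0 lower. Tlr2, a sensor of microbial and tissue debris, stood at 0.32 ± 0.08 (SE) at day 14, with a limma adjusted p of 0.0726, and was not above background. Jun, a component of AP-1 and itself induced in injured neurons, stood at 0.30 ± 0.14 (SE) at day 7 and 0.39 ± 0.14 (SE) at day 14. Il1r1, the receptor of interleukin-1, stood at 0.34 ± 0.11 (SE) and 0.30 ± 0.11 (SE), and its ligand Il1a, not above background, at 0.25 ± 0.09 (SE) at day 14. The others of the 7 were the cytokines Tnf (0.18) and Ifng (0.16, not above background) and the adaptor Myd88 (0.24).

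Below the receptors the day 14 counts lay near the shares of all genes. Of 22 measured signalling genes, 2 were higher and 3 lower at day 14 at an unadjusted p under 0.05, and 2 higher and 2 lower at day 7, with 0 past an adjusted p of 0.05 (limma). All genes gave 9.17% higher and 10.2% lower at day 14, and 3.58% higher and 6.37% lower at day 7. Stat3, a transcription factor downstream of cytokine receptors, stood at 0.36 ± 0.14 (SE) at day 14 and the receptor kinase Grk3, not above background, at 0.24 ± 0.08 (SE). The phospholipase Plcb3 stood at -0.22 ± 0.09 (SE), arrestin Arrb2 at -0.24 ± 0.10 (SE) and the G protein subunit Gnb1 at -0.11 ± 0.05 (SE). From day 7 to day 14 the leukocyte genes Rac2, a small GTPase, and Vav1, its activator and not above background, stood at 0.55 ± 0.24 (SE) and 0.23 ± 0.07 (SE). Against naive, Rac2 stood at -0.39 ± 0.26 (SE) at day 7 and 0.16 ± 0.26 (SE) at day 14. Vav1 stood at -0.18 ± 0.08 (SE) and 0.05 ± 0.08 (SE).

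Of 9 measured genes that process or present chemokines, 3 were higher and 1 lower at day 14 at an unadjusted p under 0.05, with 0 past an adjusted p of 0.05 (limma). The shares of all genes were 9.17% higher and 10.2% lower, and 18.0% higher among genes not above background. Sdc1, a heparan sulfate carrier that holds chemokines at the cell surface, stood at 0.61 ± 0.22 (SE), and Tnfaip6, which binds chemokines, at 0.50 ± 0.17 (SE) without being above background. Adam10, a protease that sheds Cx3cl1 and Cxcl16, stood at 0.23 ± 0.08 (SE) and the protease Mmp9, not above background, at -0.62 ± 0.29 (SE). From day 7 to day 14, Adam17, a related shedding protease, stood at 0.20 ± 0.10 (SE). Of 7 measured ligands and receptors whose names fall outside the rule, such as Pf4 of platelets, 0 reached an unadjusted p under 0.05 in any comparison.

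The rats' codes in the labels begin with AI, AJ or AK, and what the letters stand for is not given. All 5 AI rats were day 14 rats, and AJ was the prefix found in all groups. With the prefix as a block, the day 14 difference of Ccl2 was 1.08, and among AJ rats alone (2 naive, 2 day 14) it was 0.96. For Ccl7 the values were 0.69 and 0.48, for Ccl19 0.34 and 0.28, for Ccl17 0.84 and 0.45, for Cxcr5 0.17 and 0.12, and for Ccl20 0.18 and 0.11. The direction held for these 6 genes, while Cxcr5 and Ccl20 lost their unadjusted p under 0.05 in both, Ccl17 did with the block and Ccl7 did among AJ rats. Counts over the 45 genes went from 16 higher at day 14 to 9 with the block and 5 among AJ rats. The share of all genes was not counted in the alternative fits. These counts therefore cannot tell a smaller excess over all genes from fewer calls of any gene. With the balance of 3′ over 5′ control signal, a measure of RNA quality, as a covariate, the day 14 difference of Ccl2 was 0.61 and the count was 11. That balance, a log2 difference, was 3.26 to 3.69 in naive rats, 3.16 to 3.38 at day 7 and 3.18 to 3.36 at day 14.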

How the data were processed

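Single ganglia of 19 rats were measured on Affymetrix rat genome arrays, after 2 rounds of RNA amplification, per the labels' protocols. The authors deposited 1 log2 expression level per probe set and array. RMA and limma are named in the submitters' processing notes, with no version given in the sources used here. RMA gives every array the same distribution, which hides a shift of most transcripts in 1 direction. A further naive array had failed the submitters' quality control, per the labels, and is not analysed here.

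Of 31099 probe sets 57 controls were left out. Gene names came from the platform annotation. All 31042 probe sets were tested in 1 fit of the 3 groups (limma 3.58.1, R 4.3.3, lmFit and eBayes), with Benjamini-Hochberg adjustment over all probe sets and a threshold of 0.05; member values are read from that fit. The median standard error of a difference from naive was 0.080, which depends on the number of arrays and on the spread between rats. The fit was checked on simulated data. Correlations used exact permutation tests (scipy 1.17.1), and plots matplotlib 3.10.9. Values were given for a set of textbook members, the 8 members with the smallest F test p and any member at an unadjusted p under 0.05. Pathway genes were named at an unadjusted p under 0.05, at most 4 per list and comparison by smallest p, except where a count is spelled out in full. The members and lists were chosen with earlier results of these data known. Alternatives covered dim probe sets, normalization, moderation, array weights, probe set choice, blocks, a covariate, the background level and leaving out each array.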

Additional observations from a re-analysis of the deposited data

Results flagged for a closer look

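In 11 of 135 groups of a gene's values, 1 rat lay apart from the rest by Dixon's 95% criterion, which chance passes in about 1 of 20 groups, or 6.75 of 135. Day 7 rat 2 was the highest of its group for Ccl11 (9.08, next 6.15), Ccl17 (7.89, next 6.18), Cxcl16 (8.96, next 8.45) and Ccl19 (6.56, next 6.29). Its Atf3, at 11.15, and its macrophage mean, at 8.85, were also the highest at day 7. Day 14 rat 3 was the highest for Cxcl16 (8.93, next 8.47), Ccl22 (6.13, next 5.59) and Cxcl11 (5.91, next 5.58). Its Atf3, at 11.63, and macrophage mean, at 8.91, were the highest at day 14. The part of injury or of macrophages in these values was not tested.

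Day 14 rat 5 was the highest for Cxcl13 (8.10, next 6.93) and naive rat 2 for Ccl27 (8.62, next 8.04). Day 7 rat 5 was the lowest for Ccr10 (6.02, next 6.34) and day 7 rat 7 for Ccr3 (6.44, next 6.87).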

How the results depend on the processing

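For the genes at an unadjusted p under 0.05, the direction and side of that mark held in 305 of 390 alternative values at day 14 (16 genes), in 40 of 49 at day 7 (2 genes) and in 193 of 240 between the days (9 genes). Of the rest, 84, 9 and 47 lost the mark, and 1 reversed, Ccl4 at day 14 among AJ rats alone (-0.019). The 16 genes higher at day 14 became 5 with dim probe sets left out, which takes the 22 genes not above background out of the test, 9 with the code prefix as a block and 5 among AJ rats alone, with 9 to 16 when 1 rat was left out (9 without naive rat 2, 10 without naive rat 5). The count past an adjusted p of 0.05 at day 14, 0, became 0 to 1 when 1 rat was left out, with Cxcr5 or Ccl2 as named in the report. The 2 higher at day 7 became 1 with dim probe sets left out and 0 among AJ rats alone, with 1 to 4 when 1 rat was left out (4 without day 7 rat 1 or rat 7, 1 without day 7 rat 2 or naive rat 2). The 0 lower at day 7 became 1 after quantile normalization, with the prefix block, among AJ rats alone and without the 3 arrays high in muscle transcripts, and 0 to 2 when 1 rat was left out. Those 3 arrays were naive rat 1, day 7 rat 7 and day 14 rat 2, with mean skeletal muscle marker levels of 9.49, 9.23 and 7.88. The 9 higher from day 7 to day 14 became 5 with dim probe sets left out and 4 to 11 when 1 rat was left out (4 without day 14 rat 3), and the 0 lower became 0 to 1 (1 without day 7 rat 7). The cause of these differences was not tested. The share of all genes at an unadjusted p under 0.05 was counted in the main fit only, so counts of the alternatives have no such share beside them.

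Same-numbered rats did not deviate together (mean r = -0.03 over 17 pairs, 3 over 0.1, against 0.005 for other pairs), so the numbers do not pair the rats. With the replicate number as a block, 18 genes were higher at day 14, 2 at day 7 and 10 between the days, and the day 14 difference of Ccl2 was 0.84.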
